A study of Mus musculus with 6 samples.

Results

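Tooth germ RNA was examined for 6 genes of the maturing enamel epithelium: the protease gene Klk4, the adhesion and mineral-associated protein genes Amtn, Odam and Odaph, the endocytosis-linked gene Wdr72 and the calcium exchanger gene Slc24a4. They were chosen by symbol, and all 6 were found among the 48709 gene rows deposited. All 6 also passed the filter on low counts that left 16011 genes for testing. RNA came from first molars of mice at postnatal day 7, strain C57BL/6, as 3 wild-type libraries (WT) and 3 libraries from Gpr115-/- littermates (knockout, marked Gpr115-KO in the plots). Gpr115, now called Adgrf4, is an adhesion G protein-coupled receptor gene, which the study examined for its part in enamel mineralization. In CPM, the count scaled to the size of its library after TMM adjustment of that size, Adgrf4 stood at 66.9, 62.3 and 67.3 in WT replicates 1 to 3. Knockout replicates 1 to 3 kept 39.1, 20.6 and 27.4 CPM, lower than every WT library, with a log2 difference of −1.18 (SE 0.21) that missed the threshold of 0.05 (adjusted p by edgeR = 0.0889). The labels name neither the deleted part of the gene nor the number of animals behind a library, so any p-value below reflects only how far single libraries differ.

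Enamel is laid down as a protein-rich matrix by secretory ameloblasts, which then become maturation-stage ameloblasts and turn that matrix into dense mineral. In maturation, the matrix is degraded and its fragments are taken up, calcium is moved into the enamel space, and a specialised basal lamina attaches the cells to the enamel surface. Inherited defects of KLK4, AMTN, ODAPH, WDR72 and SLC24A4 cause enamel that is hypomineralized, a form of amelogenesis imperfecta.

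Amtn, Odam and Odaph lie on chromosome 5 and Odam and Amtn belong to a chain of secretory calcium-binding phosphoprotein genes that also holds Ambn, so the stretch around their starts was compared first. Each window below covers 250 bases before and 50 bases after an annotated start, on the plus strand of GRCm38.p6, as given by RefSeq, and 5 of the 6 genes had one (Klk4, Amtn, Odam, Odaph and Slc24a4). The 4 windows of the secreted proteins are shown because they differ in base composition and in a motif of Runx factors, which regulate ameloblasts and bone-forming cells. Capitals mark TGTGGT, the Runx core, on either strand. The windows are chr5:87884760-87885059 for Odam, chr5:91987223-91987522 for Odaph, chr7:43880910-43881209 for Klk4 and chr5:88375858-88376157 for Amtn.
Odam: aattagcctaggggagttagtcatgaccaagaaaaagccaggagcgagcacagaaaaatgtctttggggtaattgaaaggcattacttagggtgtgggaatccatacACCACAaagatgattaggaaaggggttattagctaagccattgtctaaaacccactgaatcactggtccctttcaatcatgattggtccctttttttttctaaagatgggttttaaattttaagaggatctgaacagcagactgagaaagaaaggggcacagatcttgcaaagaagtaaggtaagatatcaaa
Odaph: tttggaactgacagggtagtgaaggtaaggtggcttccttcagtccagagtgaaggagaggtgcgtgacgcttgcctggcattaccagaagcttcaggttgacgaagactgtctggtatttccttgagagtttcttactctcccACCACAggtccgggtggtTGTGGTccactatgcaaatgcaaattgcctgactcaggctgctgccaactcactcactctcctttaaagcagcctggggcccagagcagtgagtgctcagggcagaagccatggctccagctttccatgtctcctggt
Klk4: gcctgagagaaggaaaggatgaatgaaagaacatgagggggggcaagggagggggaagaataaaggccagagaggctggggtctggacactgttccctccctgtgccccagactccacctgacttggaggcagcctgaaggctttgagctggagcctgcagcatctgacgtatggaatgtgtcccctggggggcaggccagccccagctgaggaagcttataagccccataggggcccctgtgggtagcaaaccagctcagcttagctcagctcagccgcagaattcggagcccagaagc
Amtn: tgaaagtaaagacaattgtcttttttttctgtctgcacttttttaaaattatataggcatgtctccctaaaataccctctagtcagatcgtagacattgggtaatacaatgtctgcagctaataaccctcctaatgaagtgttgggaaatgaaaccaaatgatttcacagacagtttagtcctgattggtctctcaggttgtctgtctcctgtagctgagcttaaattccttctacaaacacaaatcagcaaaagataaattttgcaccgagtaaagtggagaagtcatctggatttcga

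The Runx core was present in 1 copy in the Odam window, at position −143 from the annotated start, and in 2 copies in that of Odaph, at −106 and −88. It was not among the letters of the Klk4, Amtn and Slc24a4 windows, and 16.8% of all 32851 promoter windows of this length hold it. The homeobox core TAATTG occurred once, in Odam, against 8.0% of all windows. Other searches, on both strands with overlaps allowed, matched none of the 5 windows: the TATA box TATAAA, held by 13.6% of all windows, the homeobox core TAATTA by 5.29%, the Sp site GGGCGG by 35.7%, the forkhead site GTAAACA by 3.65% and the C/EBP site TTGCNNAA by 10.8%. The windows of Amtn and Odam were poor in G and C, at 37.0% and 39.7%, while those of Odaph, Klk4 and Slc24a4 stood at 53.3%, 59.3% and 62.7%, above the median of 52.7% over all windows. A match is a stretch of letters and not a bound site.

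Per kilobase of exon, the 6 transcripts spanned a wide range of abundance in WT. Odam, which encodes a secreted protein of maturing ameloblasts and of the epithelium that seals the gum to the tooth, had the highest level at 4131 ± 18.8 CPM per kb (SD, n = 3). Amtn, encoding amelotin of the basal lamina, followed at 366 ± 16.3 CPM per kb (SD, n = 3), and Klk4, encoding the serine protease that clears enamel matrix, at 64.7 ± 12.3 CPM per kb (SD, n = 3). The remaining members were far lower. Slc24a4, encoding the potassium-dependent sodium/calcium exchanger of maturation ameloblasts, stood at 3.96 ± 0.349, Odaph, encoding an acidic phosphoprotein, at 3.78 ± 0.670 and Wdr72, encoding a WD-repeat protein tied to vesicle turnover, at 2.23 ± 0.230 CPM per kb (SD, n = 3). Ranges of neighbours in this order did not overlap in WT, except for Slc24a4 and Odaph, which could not be separated. The order of Odam, Amtn and Klk4 was the same in all 6 libraries, knockout included, and Wdr72 was lowest in each.

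Depth was ample for Odam, with 13779 to 69697 counts per library, and thin for Odaph, with 76 to 138 counts. Library totals ran from 8317302 to 11122821 counts. Counting alone gave a coefficient of variation of 0.423% for Odam and 8.79% for Odaph in WT. None of the 6 genes shared a stretch of at least 150 nt at 95% identity with a transcript of another gene. Annotated genes overlapping Slc24a4 on the opposite strand took at most 2 counts in any library, and the other members had no overlapping gene.

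Klk4 (ENSMUSG00000006948, chromosome 7, 43881160 to 43885804, GRCm38, plus strand) had 83.0, 64.5 and 94.95 CPM in WT replicates 1 to 3. In knockout replicates 1 to 3 it had 103, 52.9 and 50.1 CPM. Replicate 1 of knockout was above every WT library and the other two knockout libraries were below every WT library, so the groups overlapped. The means were 80.8 ± 15.4 CPM in WT and 68.6 ± 29.7 CPM in knockout (SD, n = 3), and the log2 fold change of −0.24 (SE 0.28) did not pass edgeR's quasi-likelihood test (adjusted p = 0.771).

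Amtn (ENSMUSG00000029282, chromosome 5, 88376108 to 88385916, plus strand) was the steadiest of the 6 genes across knockout. Its WT libraries had 360, 393 and 370 CPM and its knockout libraries 479, 368 and 311 CPM. knockout replicate 2 lay inside the WT range, replicate 1 above it and replicate 3 below it. The means, 374 ± 16.7 CPM in WT and 386 ± 85.5 CPM in knockout (SD, n = 3), gave a log2 fold change of 0.04 (SE 0.19, adjusted p by edgeR = 0.947).

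Odam (ENSMUSG00000009580, chromosome 5, 87885029 to 87894174, plus strand) was nearly constant in WT, at 5709, 5687 and 5658 CPM. This spread in TMM-scaled CPM, a coefficient of variation of 0.456%, was close to the counting error, but it depends on that scaling. The TMM factors of WT replicates 1 to 3 were 0.994, 0.999 and 0.927. Within the same WT libraries, Odam stood at 7.78%, 6.51% and 5.65% of Ambn. The knockout libraries had 7919, 1468 and 4569 CPM, a 5.39-fold span from the lowest to the highest. Replicate 2 stood apart with 25.8% of the WT mean, against 139% in replicate 1 and 80.4% in replicate 3. The means were 5685 ± 25.9 and 4652 ± 3226 CPM (SD, n = 3), and the log2 fold change was −0.29 (SE 0.49, adjusted p by edgeR = 0.850).

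The low Odam level in knockout replicate 2 was not shared by Amtn, at 98.2% of its WT mean, or by Ambn or Amelx in that library. Klk4, Odaph, Wdr72 and Slc24a4 were also low there, by less, at 65.4%, 61.1%, 70.8% and 57.7% of their WT means. Odam counts were 15.9, 14.5 and 15.3 times those of Amtn in WT, and 16.5, 4.0 and 14.7 times in knockout. Against Amelx, the amelogenin gene of the secretory stage, Odam stood at 26.9%, 27.5% and 21.96% in WT and at 34.9%, 3.2% and 16.0% in knockout. Amelx itself had 45866 CPM in knockout replicate 2, its highest level, and 20707 to 28567 CPM elsewhere. Ratios within a library do not depend on how libraries are scaled, and this pair of ratios was chosen after the values were seen.

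Odaph (ENSMUSG00000096035, chromosome 5, 91987475 to 91995320, plus strand) had 10.9, 15.6 and 13.2 CPM in WT, against 15.3, 8.1 and 9.67 CPM in knockout. knockout replicate 1 fell within the WT range and replicates 2 and 3 below it. Means of 13.3 ± 2.35 and 11.03 ± 3.81 CPM (SD, n = 3) gave a log2 fold change of −0.26 (SE 0.27, adjusted p by edgeR = 0.729), the smallest adjusted p of the 6 genes.

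Wdr72 (ENSMUSG00000044976, chromosome 9, 74110356 to 74283308, plus strand) had 15.4, 16.1 and 18.6 CPM in WT, against 30.3, 11.8 and 9.85 CPM in knockout. knockout replicate 1 reached 182% of the WT mean and replicates 2 and 3 stood at 70.8% and 59.0%. The group means were close, 16.7 ± 1.72 and 17.3 ± 11.3 CPM (SD, n = 3), with a log2 fold change of 0.05 (SE 0.38, adjusted p by edgeR = 0.971).

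Slc24a4 (ENSMUSG00000041771, chromosome 12, 102128733 to 102267091, plus strand) had 19.6, 17.6 and 16.5 CPM in WT. Its knockout libraries had 26.5, 10.3 and 10.2 CPM, again with replicate 1 above and the other two below all WT libraries. The means were 17.9 ± 1.58 and 15.7 ± 9.35 CPM (SD, n = 3), and the log2 fold change was −0.20 (SE 0.35, adjusted p by edgeR = 0.856).

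**Figure D1:**
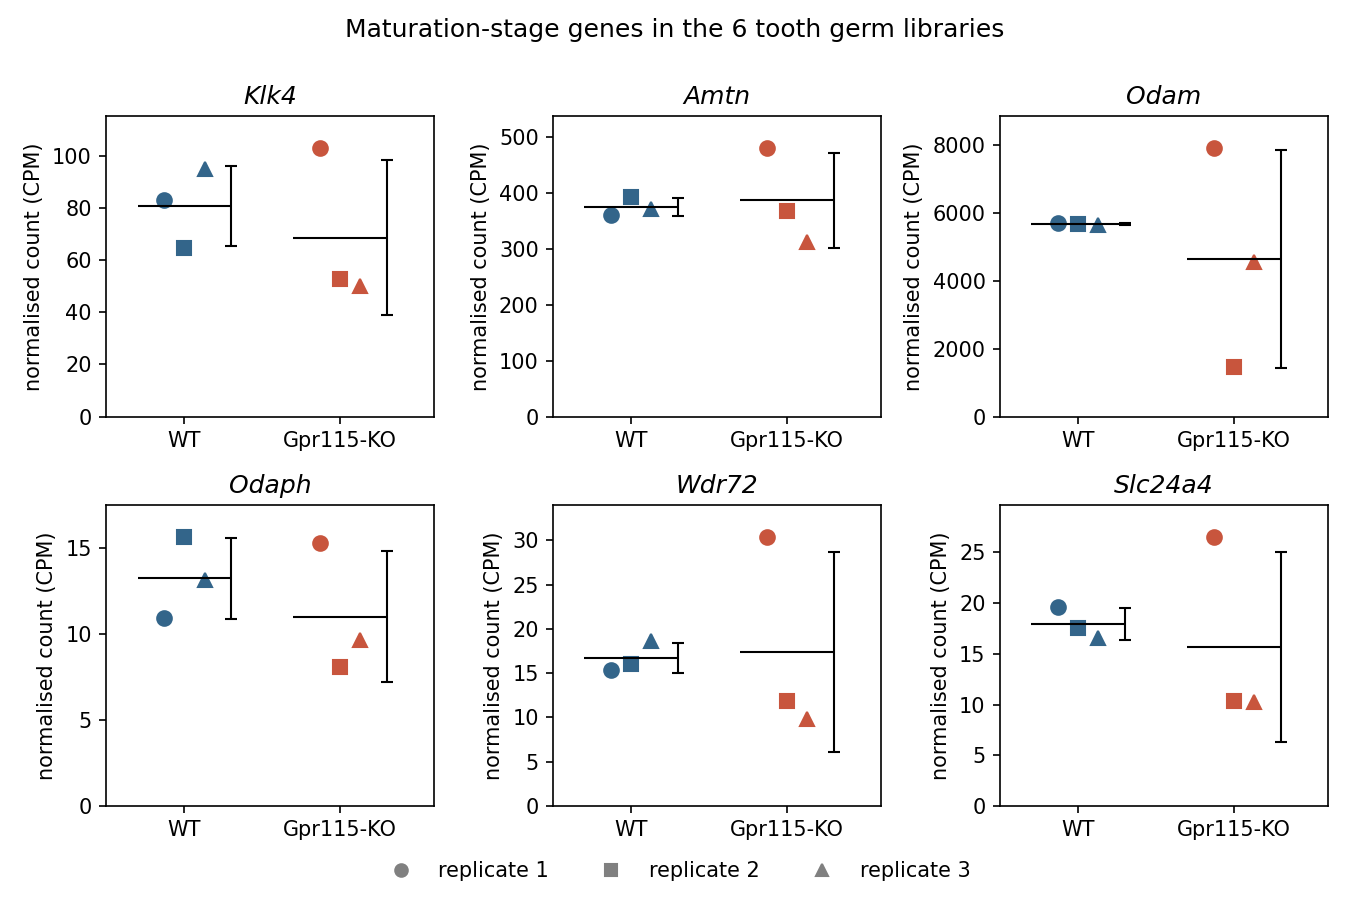
Normalised counts (CPM, linear axis from 0) of the 6 genes in each library, with the marker shape giving the replicate number, the horizontal line the group mean and the bar 1 SD (n = 3). knockout replicate 1 is above knockout replicates 2 and 3 for every gene shown.

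No member passed the test of genotype, by edgeR, DESeq2 or limma-voom, and 0 of 6 had an unadjusted p under 0.05 in edgeR. Over all 16011 genes tested, 6 were called higher and 18 lower at an adjusted p under 0.05 (0.150%), and on library totals alone 7 and 11. Of the members 4 had a fitted log2 fold change below 0 and 2 above it, with a median of −0.22, where the median over all genes tested was 0.01. The WT and knockout libraries overlapped in all 6 genes, while 17.5% of all genes tested did not overlap. In exact two-sided permutation tests over the 6 libraries, which cannot go below p = 0.1, the p-values ran from 0.4 to 1.0. The tissue is whole tooth germ, so fewer ameloblasts of one stage and less RNA per ameloblast cannot be told apart.

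The spread among knockout libraries was larger than among WT libraries for each member. The coefficient of variation was 22.2% to 69.3% in knockout and 0.456% to 19.0% in WT. Over the 9664 tested genes with a mean log2 CPM of at least 3, the median coefficient of variation was 16.8% in knockout and 12.3% in WT, and 65.3% of them were more variable in knockout. knockout replicate 1 was above both other knockout libraries in 6 of 6 members, an order that 32.5% of all genes tested showed. In 4 members, Klk4, Odam, Wdr72 and Slc24a4, replicate 1 was also above every WT library and the other two below every WT library, against 2.02% of all genes tested. These 2 orders of libraries were picked out after the values were seen and are given as a description.

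**Figure D2:**
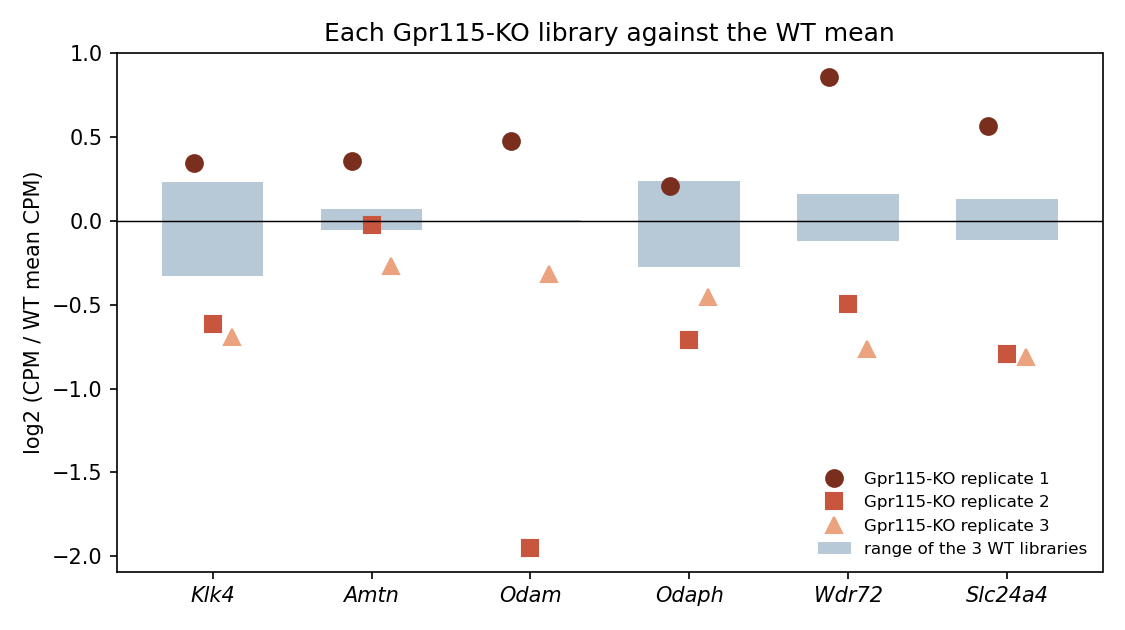
Level of each gene in each knockout library as log2 of its CPM over the WT mean CPM, with the shaded box spanning the 3 WT libraries. Odam in knockout replicate 2 is the lowest point, at −1.95, and Wdr72 in knockout replicate 1 the highest, at 0.86.

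Knockout replicate 1 was the highest knockout library in 6 of 6 members, against 32.5% of all genes tested. Leaving it out therefore had to lower each member, and a contrast with all genes is in part built in. Without knockout replicate 1 all 6 members were below 0, with a median log2 fold change of −0.64. Over the 16579 genes tested in that fit 49.3% were below 0 and the median was 0.01. The values were then −0.65 for Klk4 (SE 0.20, adjusted p by edgeR = 0.202), −0.91 for Odam (SE 0.42, 0.357) and −0.57 for Odaph (SE 0.25, 0.340). Wdr72 had −0.62 (SE 0.22, adjusted p by edgeR = 0.259), Slc24a4 −0.80 (SE 0.21, 0.158) and Amtn −0.14 (SE 0.18, 0.764). No member was called without that library. That library also had the highest Adgrf4 level of the knockout group, 39.1 CPM, and the part of this in the members' values was not tested. Leaving out knockout replicate 2 in its place moved Odam to 0.14 and Slc24a4 to 0.03, above 0.

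**Figure D3:**
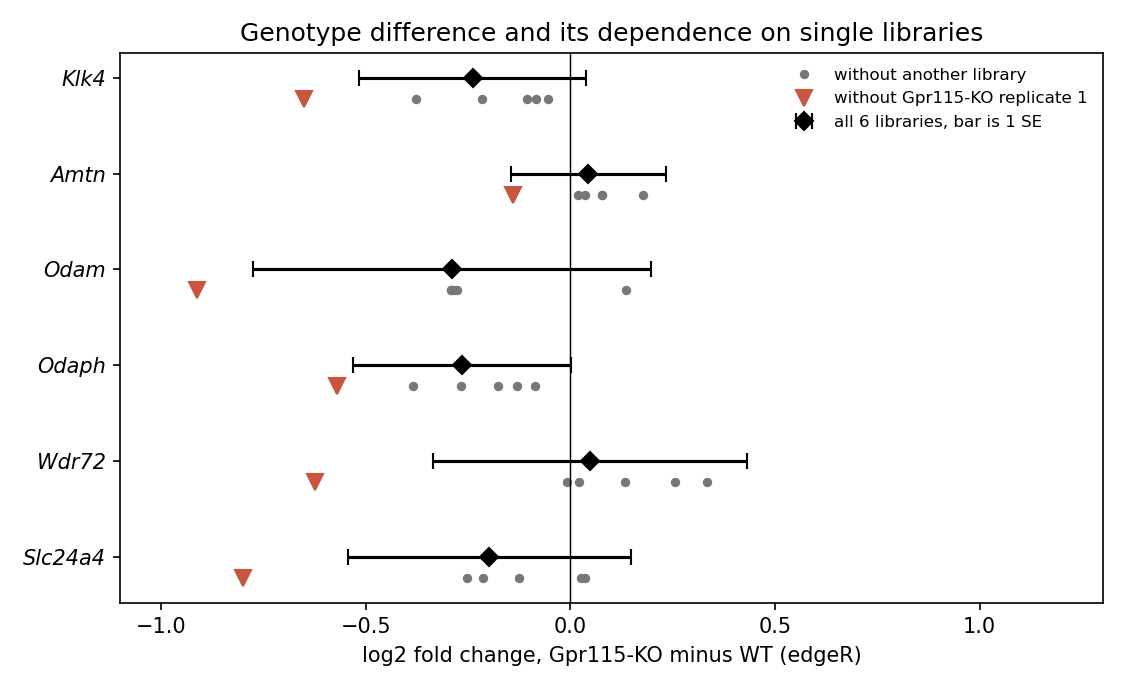
Log2 fold change of each gene, knockout minus WT, from edgeR on all 6 libraries (diamond, bar 1 SE) and with 1 library left out (dots, and triangles for knockout replicate 1). The triangles lie at −0.14 to −0.91, to the left of every other value of the same gene.

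Relative to the secretory genes of the same library, the members differed between genotypes by less than the spread of the knockout libraries. The reference was the mean log2 level of Amelx, Ambn, Enam and Mmp20, 3 matrix genes and the secretory-stage protease gene. The log2 ratio of Odam to it was −0.83, −1.06 and −1.22 in WT and −0.58, −3.65 and −1.17 in knockout, a difference of −0.76. For Klk4 it was −6.92, −7.51 and −7.11 in WT and −6.84, −8.43 and −7.67 in knockout, a difference of −0.47. Differences of −0.50 for Slc24a4, −0.46 for Odaph, −0.29 for Wdr72 and −0.15 for Amtn completed the set. All 6 were below 0, the ranges of the genotypes overlapped in each, and the exact permutation p was 0.4 to 0.8 (0.8 for each when adjusted over the 6). In every one of these ratios knockout replicate 2 was the lowest library. All 6 ratios share the same reference, and each of its genes was highest in knockout replicate 2. In CPM, knockout replicate 3 was the lowest library for Klk4, Amtn, Wdr72 and Slc24a4. Without knockout replicate 2 the differences were −0.075 for Klk4, −0.024 for Odaph and −0.033 for Slc24a4. Those of Amtn, Odam and Wdr72 turned to 0.12, 0.16 and 0.14.

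Across the 6 libraries, Pearson's r of log2 CPM was above 0 in all 15 pairs of members. It ran from 0.37 for Amtn and Odam to 0.92 for Amtn and Wdr72, with a median of 0.78. The share of all gene pairs with r above 0 was not computed, so the signs are given as a description. In exact permutation tests over the 720 orders of libraries, 5 pairs had an unadjusted p under 0.05 and 0 of 15 an adjusted one (adjusted p 0.0708 to 0.356). Spearman's rho gave 3 and 0 pairs (adjusted p 0.125 to 0.297). Removing each genotype's mean left 0 pairs with an adjusted p under 0.05, and r was 0.43 to 0.94. That permutation test has only 36 orders within genotype and cannot go below an unadjusted p of 0.0278. A pair could therefore hardly pass it after adjustment over 15 pairs.

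The strongest pairs, listed next, all involved Wdr72. Amtn and Wdr72 had r = 0.92 and rho = 0.89 (exact permutation p = 0.0194 and 0.0333, adjusted p = 0.0708 and 0.167). Wdr72 and Slc24a4 had r = 0.92 and rho = 0.77 (exact permutation p = 0.0153 and 0.103, adjusted p = 0.0708 and 0.186). Klk4 and Wdr72 had r = 0.90 and rho = 0.94 (exact permutation p = 0.00556 and 0.0167, adjusted p = 0.0708 and 0.125).

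Leaving out the 2 libraries farthest from the median of the first gene of a pair moved r to between −0.28 and 0.98. For Amtn and Wdr72, knockout replicates 1 and 3 were left out and r fell to 0.23. Without the same 2, r was −0.28 for Klk4 with Amtn and 0.11 for Amtn with Slc24a4. Dropping the extremes of the first gene narrows its range, for Amtn to 360 to 393 CPM. A fall in r can follow from that alone and does not show what a relation rests on. For Klk4 and Wdr72 r was then 0.87, for Wdr72 and Slc24a4 0.77 and for Odam and Slc24a4 0.98.

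**Figure D4:**
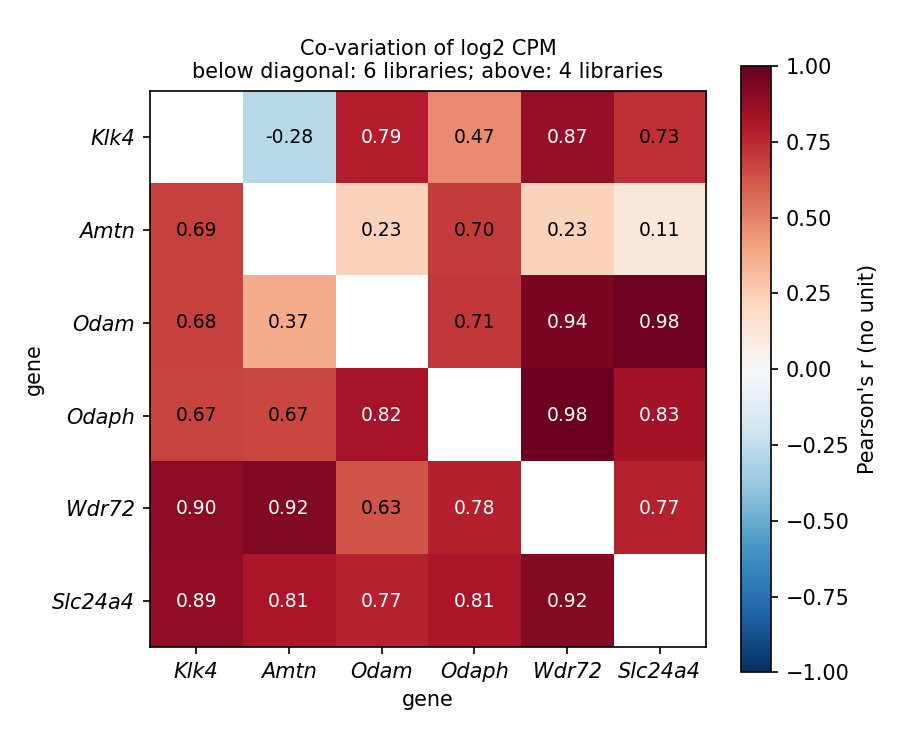
Pearson's r of log2 CPM for the 15 pairs of genes, below the diagonal over all 6 libraries and above it over the 4 libraries left when the 2 farthest from the median of the first-named gene are dropped. All 15 values below the diagonal are positive, and above it the row of Amtn is the palest and Klk4 with Amtn is negative.

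Each member's profile over the 6 libraries was compared by Pearson's r with 8709 other named genes of mean log2 CPM at least 3. Their level was not matched to that of the member, and the closest genes are given as a description. Closest to Klk4 were Rnf6, encoding a ubiquitin ligase (r = 0.996, rho = 1.0) and Mal2, encoding a protein of apical transport in epithelia (0.995 and 1.0). Closest to Amtn were Lpcat3 (0.979 and 0.771), Esrp1, encoding a splicing regulator of epithelial cells (0.979 and 0.829), and Nup214 (0.977 and 0.943). Odam was followed by Gpr176 (0.991 and 0.829), Acadsb (0.985 and 0.829) and Nrp1 (0.983 and 1.0), which like Odam were lowest in knockout replicate 2. Odaph was nearest to Slc25a38 (0.994 and 1.0), Scrn3 (0.99 and 1.0) and Celf1 (0.985 and 1.0).

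Wdr72 was nearest to Errfi1, encoding a feedback inhibitor of epidermal growth factor receptors (r = 0.983, rho = 0.943), Plbd1 (0.982 and 0.943) and Gng12 (0.972 and 0.829). Slc24a4 was nearest to Fitm2 (0.994 and 1.0), Fhdc1 (0.991 and 0.943) and Anxa1, encoding annexin A1 (0.988 and 0.886). An r of at least 0.95 was reached by 3 of the 8709 genes for Wdr72 and by 37 for Odam, the fewest and the most among the members. No other member was among the 3 nearest genes of any member.

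Other genes of maturation-stage ameloblasts gave no call, 0 of 29 tested in either direction, against 0.150% of all genes. Of these, 13 had a fitted log2 fold change above 0 and 16 below it, with a median of −0.06 and 0.01 over all genes tested. Lamp1, encoding a lysosomal membrane protein, had 40.3, 61.6 and 77.7 CPM in WT, against 89.6, 132 and 114 CPM in knockout, a log2 fold change of 0.90 (SE 0.24, adjusted p by edgeR = 0.225). Stim1, encoding the calcium sensor of store-operated entry, had −0.59 (SE 0.20, adjusted p by edgeR = 0.292). Car2, Cftr and Slc34a2, encoding a carbonic anhydrase, a chloride channel and a phosphate cotransporter, were the 3 genes of this list with replicate 1 of knockout above and the other two below all WT libraries, and were looked up for that order. Cftr had 10.8, 7.59 and 10.8 CPM in WT, against 14.0, 5.75 and 6.56 CPM in knockout.

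Families around the members were not called either. The 10 tested phosphoprotein genes of the same superfamily outside the members, such as Amelx at 0.52 (SE 0.30) and Dmp1 of dentin at −0.41 (SE 0.30), had a median of 0.12 with 7 above 0 and 3 below. Of 6 other tested kallikrein genes 5 lay above 0, with Klk8 at 0.39 (SE 0.41) and Klk10 at −0.40 (SE 0.56). For Klk7, Klk11, Klk13 and Klk14, which lay above 0, knockout replicate 1 alone was above the WT mean in the knockout group. Klk7 had 2.98, 0.793 and 1.93 CPM in the WT libraries, and 7.5, 0.853 and 0.182 CPM in the knockout ones. Among 5 other sodium/calcium exchangers, Slc24a5, a pigment-cell exchanger gene in its best known role, was the most abundant, at 654, 589 and 581 CPM in WT, against 502, 492 and 491 CPM in knockout (log2 fold change −0.30, SE 0.16, edgeR adjusted p = 0.481). Slc24a3 had 67.4 CPM in knockout replicate 2 and 21.8 to 33.2 CPM elsewhere.

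The remaining lists concern what the members work with. Of 12 ameloblast adhesion genes 7 lay below 0 (median −0.19), with Plec, encoding plectin, at −0.64 (SE 0.17, adjusted p by edgeR = 0.223) and Fam83h at 0.94 (SE 0.27, 0.251). Other amelogenesis imperfecta genes, 21 tested, had a median of 0.13, and beside Fam83h the smallest p belonged to Sp6, an enamel transcription factor gene, at 0.64 (SE 0.22, adjusted p by edgeR = 0.291). The 17 clathrin adaptor and endocytosis genes had a median of −0.09, with the adaptor subunit genes Ap2a2 at −0.41 (SE 0.17) and Ap2s1 at 0.40 (SE 0.18). Regulators tied to maturation, 26 tested, had 18 below 0 and a median of −0.15. Clock, a circadian regulator gene, had −0.69 (SE 0.17, adjusted p by edgeR = 0.182). The Runx genes, looked up because of the promoter motif, had −0.42 for Runx1 (SE 0.16, adjusted p by edgeR = 0.345), −0.52 for Runx2 (SE 0.20, 0.333) and −0.0056 for Runx3 (SE 0.33, 0.996). No gene of these 4 lists was called.

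On the genome, the nearest tested genes beside the members were not called. Csn3, the kappa-casein gene that lies between Odam and Amtn, had 4485 CPM on average in WT and 5001 CPM in knockout (log2 fold change 0.16, SE 0.35, edgeR adjusted p = 0.890). It starts 31.4 kb beyond the end of Odam. In knockout replicate 2, where Odam was lowest, Csn3 was highest, at 7290 CPM. Ambn, 70.1 kb beyond Amtn, was also highest in that library, with 140151 CPM against 53797 to 100160 CPM elsewhere.

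Markers of other tissues moved between libraries beside these values. The summed level of 14 keratinizing oral epithelium genes was 45.7 to 164 CPM in WT, against 317, 49.7 and 59.0 CPM in knockout replicates 1 to 3, and all 11 of its tested genes were higher in replicate 1 than in the other knockout libraries. The 11 skeletal muscle genes summed to 37.6 to 58.8 CPM in WT and to 25.8, 248 and 60.5 CPM in knockout, highest in the library with the lowest Odam. The 10 general dental epithelium genes summed to 1884 to 2029 CPM in WT and to 2136, 2462 and 1180 CPM in knockout, lowest in replicate 3. Erythroid genes, 7 found, summed to 138 to 158 CPM in WT, against 304, 395 and 158 CPM in knockout, and 12 leukocyte genes to 96.0 to 109 and 109 to 135 CPM. The 10 odontoblast and osteoblast genes summed to 43593 to 94049 CPM in WT and 48421 to 81583 CPM in knockout. Every marker of these lists had counts in at least 1 library. Of 8 gland markers only Csn3 passed the count filter, and Dcpp1 was at 0 throughout. The part of these differences in the members' values was not tested.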

How the data were processed

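Total RNA from first molars was extracted with TRIzol, made into libraries with a Nextera XT kit, which does not mark strand, and read as pairs on a HiSeq1500, per the labels' protocols. The submitters' processing notes name STAR 2.5.2a, edgeR, limma, DESeq2 and GRCm38 (mm10); the counting tool was not given in the sources used here, nor was the annotation. Whole counts for each gene were deposited by the authors. They also deposited a normalised signal, CPM scaled by TMM, and 100% of its values were whole reads when divided by 1 factor per column (tolerance 0.01 reads), equal to the counts. The 15 transgene rows, at most 8 counts in a library, were left out.

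The test was that of edgeR 4.0.16 (R 4.3.3) on these counts: filterByExpr (minimum count 10, minimum total 15), TMM, robust quasi-likelihood F test on genotype, two-sided, Benjamini-Hochberg over 16011 genes, 0.05 as the threshold. SE is the absolute log2 fold change over the square root of F. Correlations, ratios and profile likeness used log2(CPM + 0.5). Exonic lengths and positions are from GENCODE vM21, on GRCm38, near-identical copies from blastn 2.17.0, and promoter windows from RefSeq.

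Named genes are the 6 members, Adgrf4, the 3 genes most like each member (mean log2 CPM at least 3), from each list any called gene and the 2 of smallest p, and the nearest tested gene on each side of a member, the last mostly as counts. For Klk4, 1 of those 3 is not reported here. Members and lists were chosen with earlier results of these data known. Alternatives were other scalings, filters and tests (DESeq2 1.42.0, limma 3.58.1), the replicate number as a block, an exonic length offset, other references for ratios, and each library left out. Libraries of 1 group differed by far more than counting noise, with a chi-square per degree of freedom of 14.8 to 60.7.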

Additional observations from a re-analysis of the deposited data

How the results depend on the processing

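No member was called under any of its 17 alternatives, 102 in all, with adjusted p from 0.158 to 0.998. With all libraries kept, log2 fold changes lay between −0.35 and −0.14 for Klk4, −0.60 and −0.18 for Odam, −0.30 and −0.18 for Odaph, and −0.37 and −0.11 for Slc24a4. Amtn turned to −0.11 with the exonic length trend removed. Wdr72 turned to −0.11 with the replicate block, −0.16 with limma-voom and −0.12 with limma-trend on the deposited values. Leaving out 1 library gave −0.65 to −0.06 for Klk4, −0.14 to 0.18 for Amtn, −0.91 to 0.14 for Odam, −0.57 to −0.09 for Odaph, −0.62 to 0.33 for Wdr72 and −0.80 to 0.036 for Slc24a4. The low ends all came without knockout replicate 1.

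Ratios to the secretory genes turned to 0.038 for Amtn with Ambn alone as the reference. With Cdh1, Krt14 and Krt5 as the reference they turned to 0.20 for Amtn and 0.061 for Wdr72. Leaving out 1 library gave −0.39 to 0.12 for Amtn, −1.38 to 0.16 for Odam and −0.84 to 0.14 for Wdr72, each above 0 only without knockout replicate 2. The count of correlated pairs was 0 under its 4 alternatives, among them the removal of genotype means, which could hardly give any.

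Over all genes, calls higher and lower were 135 and 365 with no count filter, 65 and 184 with DESeq2, 16 and 35 at an adjusted p under 0.1, and 18 and 54 with the replicate block. Lower calls were 11 on library totals alone and 6 at an adjusted p under 0.01. Leaving out 1 library gave 5 to 10 higher and 7 to 39 lower, lower calls being 9 without WT replicate 1, 7 without WT replicate 2 and 39 without knockout replicate 1. The cause was not tested. With reads recovered from the normalised table, an alternative added after seeing the data, edgeR called 6 and 18. Whether replicate numbers pair the samples was not settled. The correlation of deviations from the group means was 0.26, 0.04 and −0.09 for numbers 1 to 3. Only the samples numbered 1 correlated best with each other. Deviations within a group cancel out, so these correlations constrain one another and cannot decide it.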
